A study of Mus musculus with 4 samples.

Results

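The endothelial genes described here are 34 genes that mark the cells lining blood vessels or that take part in the growth of new vessels. They were chosen by name, and each was represented by the array probe set with the highest mean signal over all pools among probe sets annotated with exactly 1 gene symbol, of 18193 symbols on the array. All 34 were found, and 33 were bright enough to be tested. The exception was the arterial connexin gene Gja5. Kidneys of C57BL/6 mouse embryos were collected at embryonic day 15 from dams kept on iron-sufficient food (220 ppm iron, the control diet) or on a synthetic food low in iron (2 to 6 ppm). Females were 8 weeks old when the diets were assigned, stayed on them for 3 weeks before gestation, and continued through mating and pregnancy with C57BL/6 males. Each diet was measured in 2 pools of 16 kidneys, 1 Affymetrix array per pool, and the values are signal intensities on a linear scale. Nothing in the labels states that pools sharing a diet came from different litters, so the p-values cover the spread among 4 pools and that spread may be technical. The labels give every sample as female, but the Y-linked gene Eif2s3y was above background in all pools. It read 594.5 and 600 on control food against 253.6 and 20.8 on low-iron food. The Y-linked genes Kdm5d (3.1) and Uty (0.6) were below that array's background of 13.3 in iron-deficient pool 2, and above background in the other pools. Because whole kidneys were pooled, fewer cells of a type and less RNA per cell cannot be told apart.

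The tissue label was checked against kidney markers. All 9 that the array annotation names, among them Six2, Wt1, Foxd1, Ret and Umod, were above background in every pool. Umod was only just so in iron-deficient pool 1, at 14.8 against a background of 14.4. Foxd1, Six2 and Wt1 had both iron-deficient pools above the controls, and Umod and Nphs1 had both below. Background was taken on each array as the highest signal among control probe sets for bacterial RNA. It was 8.5 and 8.2 on control food against 14.4 and 13.3 on low-iron food. All 34 endothelial genes were above background in all 4 pools, though Gja5 only just in iron-deficient pool 1 (15.3 against 14.4). By array, 74.4% and 69.6% of all non-control probe sets were above background on control food, and 66.2% and 63.3% on low-iron food.

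Endothelial cells in the embryonic kidney form the capillaries of the glomeruli, the arterioles that feed them and the capillary bed around the tubules. New vessels sprout behind specialised tip cells that answer to VEGF, a growth factor whose gene is induced at low oxygen. Apln, Angpt2 and Esm1 are genes of such sprouting cells and are known to respond to hypoxia or VEGF, whereas adhesion molecules such as Pecam1 and Cdh5 and transcription factors such as Erg and Sox17 are kept by endothelial cells as part of their identity. The 3 tip genes are therefore described apart from 30 identity genes, and Angpt1, a ligand made mainly by the mural and mesenchymal cells around vessels, stands by itself.

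The sequences upstream of 3 genes are shown because the results turn on these genes, Esm1 with the largest positive difference among the members tested, Ehd3 with the largest negative difference, and Apln as a tip gene that did not share the direction of Esm1. Each is the stretch of 250 bases before a RefSeq transcription start in GRCm38.p6, written 5′ to 3′ on the gene's strand, and lies at chr13:113209409-113209658 on the plus strand for Esm1, chr17:73804591-73804840 on the plus strand for Ehd3 and chrX:48034854-48035103 on the minus strand for Apln. Capitals mark a match to ACGTG or GCGTG, the core letters of the hypoxia response element, or to GGAAGT, a core of ETS factor sites, all searched on both strands.
Esm1: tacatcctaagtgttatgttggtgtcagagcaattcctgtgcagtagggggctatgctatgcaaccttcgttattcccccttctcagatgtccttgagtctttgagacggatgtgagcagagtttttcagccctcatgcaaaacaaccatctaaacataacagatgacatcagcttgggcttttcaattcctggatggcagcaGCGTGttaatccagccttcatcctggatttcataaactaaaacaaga
Ehd3: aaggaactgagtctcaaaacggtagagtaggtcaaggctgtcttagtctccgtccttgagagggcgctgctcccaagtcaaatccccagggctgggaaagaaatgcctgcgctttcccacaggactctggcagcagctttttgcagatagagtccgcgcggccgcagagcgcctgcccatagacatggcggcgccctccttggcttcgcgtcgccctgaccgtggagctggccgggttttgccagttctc
Apln: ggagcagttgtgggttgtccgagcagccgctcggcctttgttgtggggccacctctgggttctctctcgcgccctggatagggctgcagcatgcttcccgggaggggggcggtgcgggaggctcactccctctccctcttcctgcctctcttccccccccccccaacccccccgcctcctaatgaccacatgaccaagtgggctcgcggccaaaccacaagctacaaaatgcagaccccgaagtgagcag
The Esm1 stretch held 1 match, GCGTG, at 47 to 43 bases before the start, while the Ehd3 and Apln stretches held none. Windows were found for 15 of the 34 genes. ACGTG was present for 1 of the 15 (Clec14a), and 18.5% of all 27025 genes with a window held it. GCGTG was present for 3 (Esm1, Emcn and Erg), against 30.9% of all genes, and GGAAGT for 3 (Egfl7, Tie1 and Eng), against 22.2%. A match describes letters in this window and is not a binding site.

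Among the endothelial genes, Esm1 had the largest positive difference of the tested members, about equal in both iron-deficient pools, while Ehd3, Sox17, Esam, Tek and Emcn were among those lower in both. Of the 29 tested identity genes 18 overlapped between diets, as did 7931 of all 12997 tested genes. Both iron-deficient pools lay below both control pools for 11 of 33 tested members (33.3%), where 25.9% of all 12997 tested genes did so. Both lay above for 3 members (9.09%), Esm1, Pecam1 and Sox7, where 13.0% of all genes did so. At an unadjusted p under 0.05 by limma, 1 member was higher (Esm1, with 1.26% of all genes) and 1 was lower (Ehd3, with 3.32% of all genes). None passed an adjusted p of 0.05 by limma over all 27022 probe sets, and neither did any other probe set (0.0%). The median log2 difference, iron-deficient minus control, was -0.33 over the 33 members and -0.14 over all tested genes. These shares were near the background, and nothing particular to the list is read from them.

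**Figure D1:**
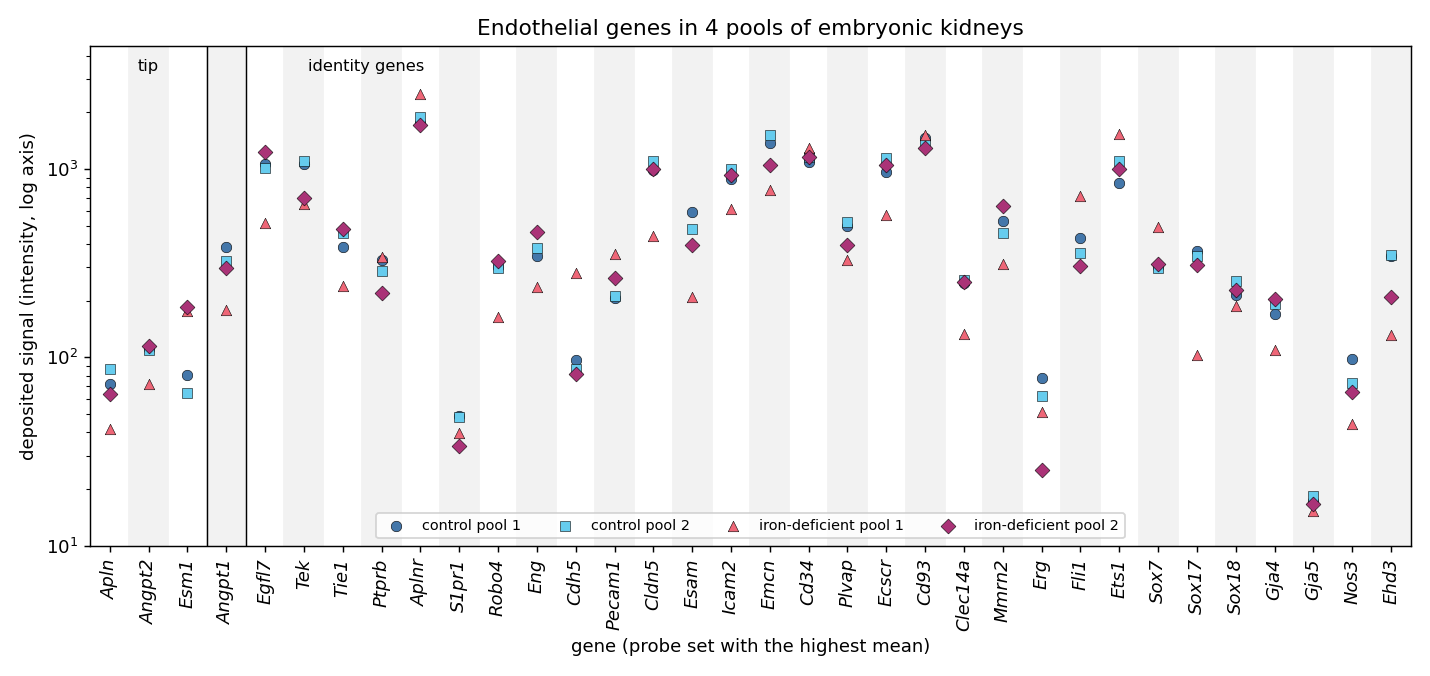
Deposited signal (vertical log axis) of the 34 endothelial genes, 1 point per pool, with tip genes at the left, Angpt1 between the vertical lines and identity genes at the right. Esm1 lies at 176.7 and 184.1 for the iron-deficient diet, above 80.7 and 64.7 for the control diet, and the triangle of iron-deficient pool 1 stands away from the other 3 pools for many identity genes. Levels of different genes come from different probe sets and are not comparable.

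The 3 tip genes did not share a direction. Esm1, which encodes endocan, a proteoglycan secreted by sprouting endothelial cells, read 80.7 and 64.7 on control food against 176.7 and 184.1 on low-iron food. Both iron-deficient pools were more than the control range above the controls, and they were close to each other. The log2 difference was 1.32 ± 0.32 (SE), a 2.50-fold higher signal, with limma adjusted p = 0.852 and an unadjusted p under 0.05. Either iron-deficient pool gave a like difference, 1.29 in pool 1 and 1.35 in pool 2. Without control pool 1 the difference was 1.48 and without control pool 2 it was 1.16.

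Apln, which encodes the secreted peptide apelin, had lower signal. It read 72.1 and 86.5 on control food against 41.4 and 63.7 on low-iron food, so the groups did not overlap. The log2 difference was -0.62 ± 0.37 (SE), with limma adjusted p = 0.852, and it was -0.31 in iron-deficient pool 2 by itself. Apln is X-linked, and markers of sex also differed between pools: Xist read 926.6 and 167.8 on control food against 3427.3 and 1543.3 on low-iron food, and the Y-linked Kdm5d read 117.7 and 93.8 against 64.2 and 3.1, beside Eif2s3y given above. Uty, Y-linked and left out of the test with the dim probe sets, read 51.2 and 62.1 against 38.2 and 0.6. Xist was thus higher, and the Y-linked genes lower, in both iron-deficient pools. With 2 pools per diet, the sex mix of the pools and the diet cannot be told apart, for Apln or for any other gene. The part of the sex mix was not tested.

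Angpt2, the ligand that loosens vessel walls during sprouting, read 110.8 and 109.4 in the control pools. The iron-deficient pools read 72.5 and 114.8, on either side of the controls, with a log2 difference of -0.27 ± 0.37 (SE). The dimmer of its probe sets differed by -0.53 ± 0.56 and overlapped, with 32.0 and 20.9 on control food against 29.4 and 10.9 on low-iron food. Its value in iron-deficient pool 2 was below that array's background of 13.3. The label of hypoxia-responsive tip genes thus covered 1 gene higher, 1 lower and 1 that overlapped, and their median was -0.27, or -0.04 with Aplnr counted among them. In the same pools 19 of 20 tested hypoxia targets (95.0%, with 13.0% of all genes) were higher in both iron-deficient pools. Among them were Adm, Hk2, Pfkfb3 and Slc2a3. The median of the 20 was 1.33, and 14 were higher at an unadjusted p under 0.05 by limma (70.0%, with 1.26% of all genes). This list was chosen with earlier results of these data known, so its counts are description only.

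Other genes of sprouting and vessel growth were taken from a list of 30, of which 29 were tested. Both iron-deficient pools were above both control pools for 10 of them and below for 4 (34.5% and 13.8%, with 13.0% and 25.9% of all genes), with a median of 0.07. At an unadjusted p under 0.05 by limma, 3 were higher (10.3%, with 1.26% of all genes) and none lower (3.32% of all genes), and none passed the adjusted threshold. Kcne3, a potassium channel subunit known as a tip cell transcript, read 120.8 and 91.8 on control food against 446.4 and 701.7 on low-iron food (log2 difference 2.41 ± 0.39, SE). The others were Adm, the vasodilator adrenomedullin, at 2.42 ± 0.42 and Vegfa at 1.31 ± 0.32, both of which are also on the list of hypoxia targets. Jag1, a Notch ligand, had separated pools at 0.77 ± 0.40. The adhesion molecule Mcam (-0.68 ± 0.44), the urokinase receptor gene Plaur (-0.39 ± 0.31), Rgcc (-0.41 ± 0.33) and the Notch target Hey2 (-0.28 ± 0.32) were lower in both iron-deficient pools.

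In the angiopoietin and Tie system, Angpt1 activates the receptor encoded by Tek, Angpt2 mostly opposes it, Tie1 is a partner receptor, and Ptprb is a phosphatase that restrains Tek. Signals of the activating ligand and of its receptor were lower in each iron-deficient pool. Angpt1 read 385.1 and 324.5 on control food against 178.3 and 296.9 on low-iron food (-0.62 ± 0.39, SE). That difference was -0.99 in iron-deficient pool 1 and -0.25 in pool 2. Its dimmer probe set overlapped between diets, at -0.30 ± 0.35. Tek read 1065.6 and 1107.5 on control food against 652.7 and 699.4 on low-iron food. Here the iron-deficient pools were close to each other and the gap to the controls was wider than either group's range. The log2 difference was -0.69 ± 0.31 (SE), with limma adjusted p = 0.852. It was -0.74 in iron-deficient pool 1 and -0.64 in pool 2.

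Tie1 did not follow Tek. It read 385.3 and 457.6 in control, 238.2 in iron-deficient pool 1 and 480.5 in pool 2, so that the iron-deficient pools lay on both sides of the controls (-0.31 ± 0.44, SE). The brighter Ptprb probe set read 327.4 and 287.3 on control food against 339.1 and 218.2 on low-iron food (-0.17 ± 0.37). The dimmer tested one separated the diets, with 193.2 and 185.7 against 108.0 and 143.9 (-0.60 ± 0.33). Ptprb therefore gave no single direction by pool overlap.

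Aplnr, the receptor for apelin, gave opposite signs by probe set. The brighter one read 1746.9 and 1877.0 on control food against 2485.5 and 1716.6 on low-iron food (0.19 ± 0.35, SE). The other one read 998.4 and 1081.3 on control food against 845.0 and 526.5 on low-iron food, lower in both (-0.64 ± 0.37). No direction is given for this gene.

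Of the other receptors, S1pr1, the receptor for sphingosine 1-phosphate that stabilises vessels, read 48.6 and 48.0 on control food against 39.8 and 33.8 on low-iron food. Both iron-deficient pools were lower, by a log2 difference of -0.40 ± 0.32 (SE). Robo4, a guidance receptor of endothelial cells, and Eng, a co-receptor for TGF-beta ligands, followed another pattern, in which iron-deficient pool 1 was below the controls and pool 2 above them. Robo4 read 302.5 and 298.6 on control food against 162.9 and 325.9 on low-iron food (-0.38 ± 0.43). Eng read 346.5 and 379.9 against 236.4 and 464.6 (-0.13 ± 0.43). Egfl7, a secreted factor of vessel matrix, had that pattern as well, with 1062.3 and 1012.7 against 513.7 and 1233.3 (-0.38 ± 0.49), and its 3 other probe sets differed by -0.40 to -0.70 with overlapping pools.

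The junction genes did not share a direction. Pecam1, the platelet and endothelial adhesion molecule, read 206.4 and 210.6 on control food against 355.0 and 262.4 on low-iron food, higher in both (0.55 ± 0.34, SE; limma adjusted p = 0.852). Esam, an adhesion molecule of tight junctions, read 587.7 and 481.1 on control food against 209.6 and 395.8 on low-iron food, lower in both (-0.88 ± 0.42). Its difference was -0.43 in iron-deficient pool 2 by itself. Cdh5, which encodes VE-cadherin of adherens junctions, read 97.2 and 87.0 in control, 279.4 in iron-deficient pool 1 and 81.3 in pool 2. That ratio of 3.44 between the iron-deficient pools was the widest of any of the 34 genes, and the diet difference of 0.71 ± 0.62 turned to -0.18 without pool 1.

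Cldn5, the claudin of endothelial tight junctions, was low in iron-deficient pool 1 alone. It read 986.7 and 1103.3 on control food against 441.1 and 1000.6 on low-iron food (-0.65 ± 0.47, SE). Icam2, a ligand for leukocyte integrins, read 884.1 and 1003.3 on control food against 610.2 and 923.7 on low-iron food (-0.33 ± 0.36). For both genes pool 2 lay inside the control range.

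Among the surface and vessel-wall genes, Emcn and Plvap had both iron-deficient pools below the controls, and the other 5 overlapped. Emcn, a sialomucin of capillaries and veins, read 1378.9 and 1511.4 on control food against 770.4 and 1055.0 on low-iron food (-0.68 ± 0.34, SE). Plvap, the protein of the diaphragms that span capillary fenestrae, read 500.9 and 524.2 on control food against 326.9 and 395.5 on low-iron food (-0.51 ± 0.32). Cd34 and Cd93 were nearly level over the 4 pools. Cd34, a sialomucin shared with blood progenitors, ranged from 1092.0 to 1288.8 (0.12 ± 0.31), and Cd93, a C-type lectin receptor, from 1295.7 to 1515.1 (-0.002 ± 0.317). A dimmer Cd93 probe set read 725.3 and 707.4 against 596.4 and 576.3 (-0.29 ± 0.31).

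Ecscr, a regulator of endothelial migration, Clec14a, a lectin of vessel growth, and Mmrn2, its matrix partner, were again low in iron-deficient pool 1 and not in pool 2. Ecscr read 966.2 and 1136.6 on control food against 567.5 and 1045.2 on low-iron food (-0.44 ± 0.41, SE). Clec14a read 248.7 and 255.8 against 132.9 and 251.4 (-0.46 ± 0.42), and its other probe set differed by 0.07 ± 0.33. Mmrn2 read 528.5 and 455.3 against 313.8 and 636.9 (-0.13 ± 0.44). Pool 2 was within the control range for Ecscr and Clec14a and above it for Mmrn2.

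The transcription factors had a median difference of 0.04 over 6 genes. Sox17, a factor of arterial endothelium, read 365.9 and 345.9 on control food against 103.0 and 309.8 on low-iron food, lower in both but by -1.79 in pool 1 and -0.20 in pool 2 (-0.99 ± 0.57, SE). Its dimmer probe set overlapped between diets at -0.28 ± 0.35. Sox7, of the same SOX subgroup, read 302.3 and 298.0 on control food against 489.0 and 311.6 on low-iron food, higher in both (0.38 ± 0.37), though by 0.05 in pool 2. Sox18, also of that subgroup, read 214.6 and 253.8 against 188.1 and 227.2 (-0.17 ± 0.33), overlapping.

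Erg, an ETS factor that maintains endothelial identity, depended on the probe set. The brighter one read 77.6 and 62.3 on control food against 51.0 and 25.1 on low-iron food, lower in both (-0.96 ± 0.45, SE). The dimmer one read 42.5 and 45.4 on control food against 45.5 and 47.4 on low-iron food (0.08 ± 0.31). Fli1 and Ets1, ETS factors that blood cells also express, were high in iron-deficient pool 1 by their brightest probe sets. Fli1 read 431.9 and 357.2 on control food against 719.1 and 305.8 on low-iron food (0.26 ± 0.49). Its dimmer probe set overlapped, with 88.9 and 63.7 against 84.6 and 70.3 (0.035 ± 0.35). Ets1 read 847.0 and 1101.0 against 1536.0 and 994.9 (0.36 ± 0.38), and the 3 dimmer Ets1 probe sets lay between -0.20 and 0.21. In pool 1, 1 of these was below both controls (197.8 against 220.5 and 270.2) and the others were above both.

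Ehd3, a membrane traffic protein that in the kidney marks glomerular endothelium, had the lowest difference of the tested members. It read 346.2 and 347.3 on control food against 131.9 and 208.3 on low-iron food. The control pools were nearly equal and both iron-deficient pools were far below them. The log2 difference was -1.06 ± 0.37 (SE), a 2.09-fold lower signal, with limma adjusted p = 0.852 and an unadjusted p under 0.05. Its other probe set was lower in both iron-deficient pools as well, with 199.3 and 197.5 against 139.2 and 113.4 (-0.66 ± 0.32). By limma, the unadjusted p was above 0.05 with no filter on dim probe sets and after median centring. After median centring, p followed only the size of the difference across the members, whatever their spread between pools. Without control pool 1 the difference was -1.07, and without control pool 2 it was -1.06. Podocytes are the partner cells of the glomerulus. Of 5 tested podocyte genes, 3 were lower in both iron-deficient pools (Nphs1, Synpo and Ptpro) and Wt1 was higher in both. Of all tested genes, 25.9% were lower in both and 13.0% higher in both. The median difference was -0.59 over the 5 podocyte genes and -0.14 over all tested genes. With only 5 genes, nothing particular to podocytes is read from this count. The summed signals of the podocyte genes, in which the bright Podxl and Wt1 probe sets weigh most, were 4255 and 4371 on control food against 4236 and 4318 on low-iron food. The part of the podocyte genes in the Ehd3 difference was not tested.

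Nos3, the endothelial nitric oxide synthase, read 98.0 and 72.8 on control food against 44.1 and 65.8 on low-iron food, lower in both (-0.65 ± 0.38, SE). It was -0.94 in iron-deficient pool 1 and -0.36 in pool 2, and -0.435 without control pool 1. The arterial connexin gene Gja4 read 168.9 and 192.7 on control food against 109.1 and 204.4 on low-iron food (-0.27 ± 0.42), on both sides of the controls. Gja5, the other arterial connexin, was too dim to be tested, at 17.2 and 18.4 on control food against 15.3 and 16.6 on low-iron food.

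The 2 iron-deficient pools differed from each other more than the control pools did. Over the 34 genes the median ratio of the higher to the lower pool was 1.57 on low-iron food and 1.11 on control food, and over all tested genes it was 1.52 and 1.12. The 29 tested identity genes had a median log2 difference from the control mean of -0.65 in iron-deficient pool 1 and -0.06 in pool 2, where all tested genes had medians of -0.31 and 0.00. In pool 1, 23 of 33 members (69.7%) were below both control pools and 10 (30.3%) above both, while 60.1% and 30.2% of all genes were. In pool 2, 16 members (48.5%) were below and 10 (30.3%) above, while 38.4% and 37.8% of all genes were. A difference of over 0.5 on the log2 scale in the lower direction was seen for 17 identity genes in pool 1 (58.6%, with 40.3% of all genes) and for 4 in pool 2 (13.8%, with 9.05% of all genes). In the higher direction it was seen for 5 in pool 1 (17.2%, with 17.1% of all genes) and for 0 in pool 2 (with 8.07% of all genes).

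**Figure D2:**
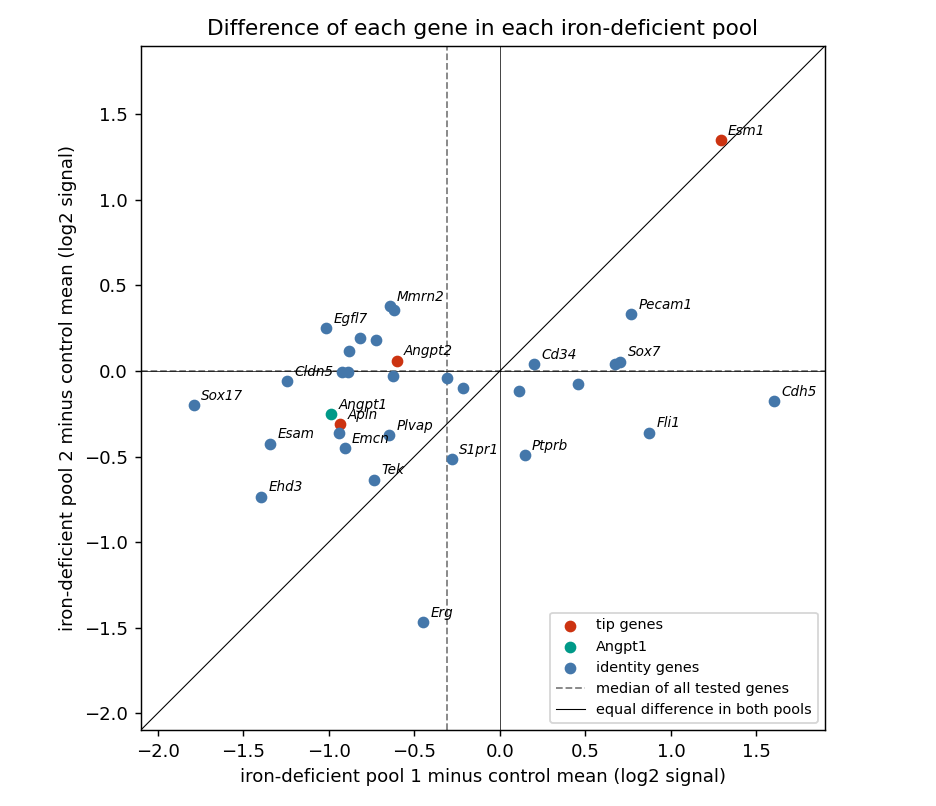
Each point is 1 of the 34 genes, with its log2 signal minus the control mean in iron-deficient pool 1 (horizontal) and pool 2 (vertical), and dashed lines give the medians of all tested genes (-0.31 and 0.00). Esm1 lies near the line of equal differences at the upper right, whereas most identity genes spread along the horizontal axis, from -1.79 for Sox17 to 1.60 for Cdh5.

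The array of iron-deficient pool 1 also differed in control measures. The ratio of 3′ to 5′ signal, which grows when RNA is shorter, was 1.64 for the beta-actin control and 1.43 for the Gapdh control in that pool, 1.38 to 1.49 and 1.26 to 1.36 in the other pools. For the transferrin receptor control it was 8.68 in that pool and 3.75 in iron-deficient pool 2, with 2.01 and 2.36 on control food. That control differed mostly in its 3′ signal, with 54.0 and 48.4 on control food against 303.1 and 117.1 on low-iron food. Its 5′ signal was dim throughout, with 26.8 and 20.5 against 34.9 and 31.2, so this ratio is not read as RNA length. For 18S ribosomal RNA the ratio went the other way, at 0.278 in iron-deficient pool 1 and 0.485 to 0.589 in the others. Across the tested probe sets, which are not independent replicates, log2 signals of the pool 1 array correlated with those of the other arrays at 0.883 to 0.913. The other 3 arrays correlated among themselves at 0.970 to 0.978. The part of these measures in the differences of the endothelial genes was not tested. Without iron-deficient pool 1, Esm1 differed by 1.35, Ehd3 by -0.74, Tek by -0.64, Emcn by -0.45, Plvap by -0.37, Angpt1 by -0.25, Nos3 by -0.36, Pecam1 by 0.33 and Erg by -1.47, and the identity median was -0.06. Without iron-deficient pool 2 that median was -0.65.

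Probe sets of the same gene mostly shared a sign. Of the 14 members with further tested probe sets (21 in all), 10 had 1 sign throughout, and Aplnr, Clec14a, Erg and Ets1 did not. For those 4 the sign rests on the choice of probe set.

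**Figure D3:**
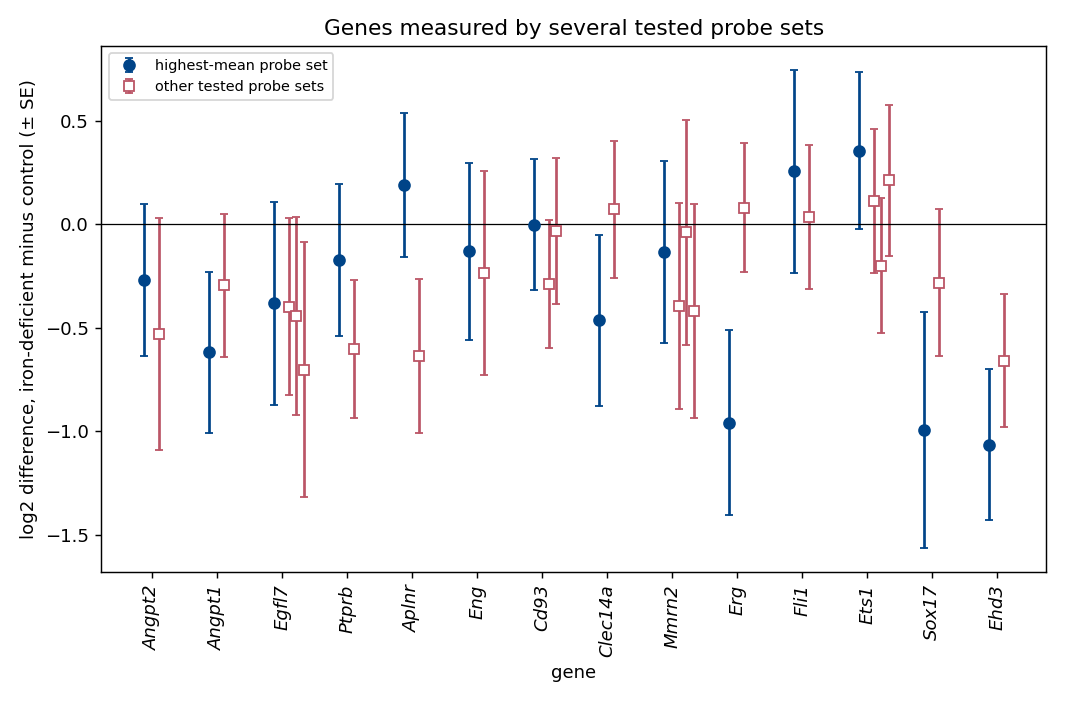
Log2 difference, iron-deficient minus control, with its standard error, for the 14 genes with several tested probe sets. Filled circles are the probe sets with the highest mean and open squares the others. Both Ehd3 probe sets lie below 0 (-1.06 and -0.66), and Aplnr (0.19 and -0.64) and Erg (-0.96 and 0.08) change sign between probe sets.

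Other endothelial genes were taken from a list of 49, of which 44 were tested, with a median of -0.14, equal to that of all tested genes to 2 decimals. Both iron-deficient pools were above both control pools for 7 and below for 12 (15.9% and 27.3%), near the 13.0% and 25.9% of all genes. At an unadjusted p under 0.05 by limma 2 were higher and 3 lower (4.55% and 6.82%, with 1.26% and 3.32% of all genes), and none passed the adjusted threshold. The genes named next are those of smallest p in each direction, and nothing particular to the list is read from them. Flt1, a VEGF receptor, had the smallest p of the higher ones, with 312.5 and 278.7 on control food against 1544.4 and 804.8 on low-iron food (1.92 ± 0.42, SE). Vwf, the clotting factor of endothelial cells and platelets, read 38.0 and 39.5 on control food against 73.4 and 155.2 on low-iron food (1.46 ± 0.45). Thbd, which encodes thrombomodulin, and Adgrf5, an adhesion receptor, had separated pools at 0.53 ± 0.32 and 0.48 ± 0.31. In the other direction, the receptor gene Gpr182 read 95.4 and 127.8 against 17.3 and 47.8 (-1.94 ± 0.55). Procr, the protein C receptor, differed by -1.40 ± 0.51, Exoc3l2 by -1.21 ± 0.44 and Gimap4 by -0.82 ± 0.41.

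Cells that touch vessels or share endothelial markers were followed by their own lists, each with its median and its summed signal, which is weighted towards the brightest probe sets. Their counts stand beside shares of 13.0% (higher) and 25.9% (lower) of all genes. Of 11 tested mural genes, those of pericytes and vascular smooth muscle, 2 were higher in both iron-deficient pools (Abcc9 at 0.79 ± 0.35 and Notch3 at 0.67 ± 0.32, SE) and 4 were lower. The lower ones were the smooth muscle genes Myh11 (-1.30 ± 0.41), Acta2 (-0.61 ± 0.35) and Tagln (-0.999 ± 0.59) and the peptidase gene Anpep (-1.59 ± 0.66), which the proximal tubule also expresses. The mural median was -0.31, and the summed signal was 8504 and 8688 in control, 6295 in iron-deficient pool 1 and 9360 in pool 2. The sum was low in pool 1 and not in pool 2, an order also seen in the medians of the identity genes and of all tested genes (-0.31 and 0.00).

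Of 6 tested lymphatic genes, Pdpn, which podocytes also express, was higher in both iron-deficient pools (0.52 ± 0.34, SE) and Mmrn1 was lower (-0.44 ± 0.34). Their median difference was -0.004, and their summed signal, most of which came from the Pdpn probe set, was 3347 and 3586 on control food against 4951 and 3950 on low-iron food. Of 5 tested platelet genes, Ppbp (1.18 ± 0.53) and Gp1bb (0.90 ± 0.48) were higher in both and none was lower, the median was -0.19, and the sum over the list was 659.3 and 585.3 against 573.1 and 654.9. Macrophage and leukocyte genes, which share Pecam1, Icam2 and Fli1 with endothelium, were lower in both iron-deficient pools for 6 of 11 and higher for none, with Adgre1 at -0.78 ± 0.34, C1qa at -0.84 ± 0.45, Laptm5 at -0.54 ± 0.36 and Cx3cr1 at -0.59 ± 0.41, a median of -0.54, and sums of 3581 and 3821 against 2434 and 3404. Erythroid genes were higher in both for 6 of 9, among them the embryonic globin genes Hbb-bh1 and Hba-x with Hemgn and Ermap, and lower for 1, the heme synthesis gene Alas2. Their median was 1.49, with sums of 3033 and 3362 against 9671 and 6802. Of all these marker genes, only Gp6 was not above background in any pool. Their part in the endothelial differences was not tested.

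**Figure D4:**
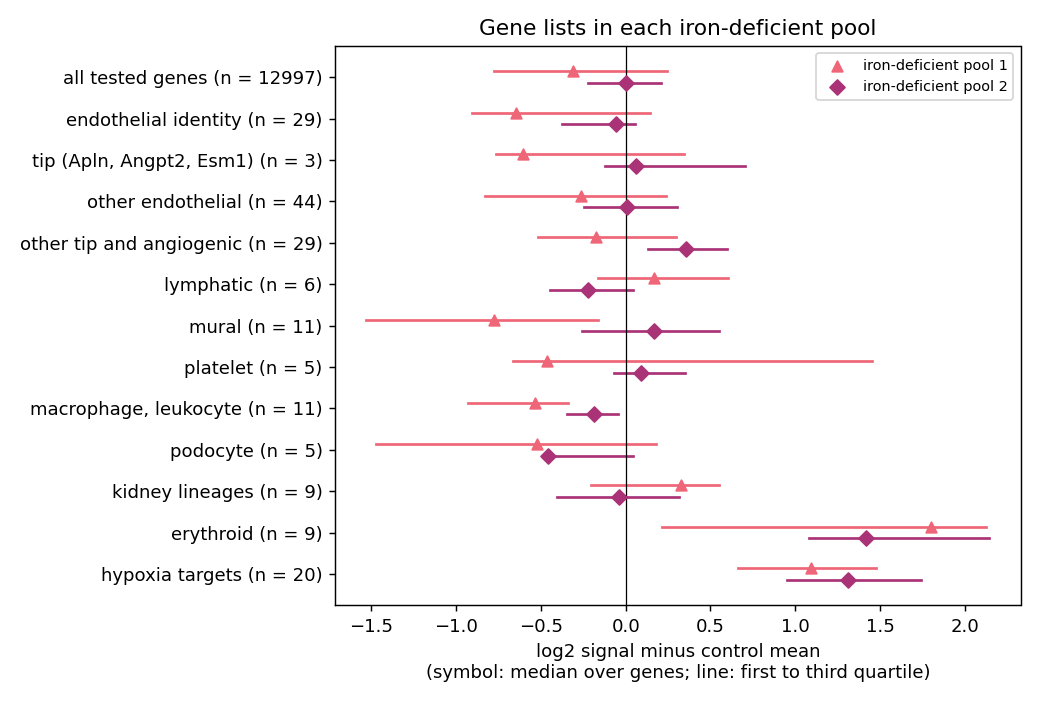
Median over genes (symbol) and range from the first to the third quartile (line) of the log2 signal minus the control mean, in each iron-deficient pool, for the endothelial genes and for the other lists, with the number of tested genes at the left. The identity genes lie at -0.65 and -0.06, the other endothelial genes at -0.26 and 0.01, and the hypoxia targets at 1.09 and 1.31.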

How the data were processed

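RNA from 4 pools was biotin-labelled and hybridised to Affymetrix arrays, per the labels' protocols. Each array has 1 deposited intensity per probe set, on a linear scale. The submitters' processing notes name RMA, but the deposited intensities are not logarithmic and their distributions differ between arrays, so their exact software is not stated. All 4 columns were used (0 left out). Probe sets were named through the platform annotation.

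Zeros (3, 1, 1 and 1 per array) were set to 0.1, values were turned to log2, and 64 control probe sets and the lowest 40% of the other 45037 by mean log2 signal (a limit of 17.3 in signal) were left out. Diet effects were estimated by lmFit and eBayes of limma 3.58.1 (R 4.3.3), two-sided, without other terms, and p-values were adjusted over 27022 probe sets after Benjamini and Hochberg. This fit had 2 residual and 3.49 prior degrees of freedom, and the small number of arrays limits the precision. An exact permutation test of 2 pools against 2 cannot go below p = 0.333 and was not used. Shares of all genes use 1 probe set, the brightest on average, for each of 12997 tested genes. Errors are standard errors of the log2 difference.

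The members and lists were chosen with earlier results of these data known. The text names all members, and from every other list up to 4 genes per direction by smallest p among those whose pools do not overlap. The sex-linked list is given as far as the annotation names it. Alternatives were quantile normalization or median centring, no filter or one that drops the lowest 60%, robust eBayes, an intensity trend, array weights, a block for the pool number, leaving each pool out, an offset of 16 before the log, 1 probe set per gene, the other probe sets of a gene, and Aplnr among the tip genes.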

Additional observations from a re-analysis of the deposited data

Results flagged for a closer look

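A control feature outside the diet comparison, the 5′ probe set of 18S ribosomal RNA, read 2144.5 in iron-deficient pool 1. It read 243 in pool 2 of that diet and 291.9 and 289.4 on control food. Pool 1 is also the pool in which the identity genes had the lower median.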

How the results depend on the processing

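With all pools kept, no member passed an adjusted p of 0.05 by limma under any alternative. Other genes did pass under some. Over all genes, the smallest limma adjusted p was 0.0214 with 1 probe set per gene, 3.44e-30 after median centring and 4.75e-46 with the block. The count at an unadjusted p under 0.05 in the lower direction, 1 as reported, was 0 with no filter and after median centring, 2 with an intensity trend (3.07% of all genes) and 3 with the pool number as a replicate block (4.79% of all genes). The block left Esm1 as the 1 higher member (2.30% of all genes). After median centring and with the block, p followed only the size of the difference across the members, whatever their spread between pools. The block counts therefore cannot tell whether the pools are paired. A filter dropping the lowest 60% removed Apln, S1pr1, Erg and Nos3. Under it 7 of 29 members had both iron-deficient pools below the controls in place of 11 of 33, as each removed gene had been lower in both. The share of all genes under that filter was not computed. The tip median, then over 2 genes, was 0.52 in place of -0.27. Leaving out 1 pool at a time gave 0 to 5 members higher and 0 to 18 lower at an unadjusted p under 0.05, both highest without iron-deficient pool 2 (15.2% and 54.5% of members), where 12.1% of all genes were higher and 31.6% lower. With 1 pool left out, members without overlap were 3 to 10 higher and 11 to 23 lower. Fewer pools make overlap rarer in all genes as well. Without iron-deficient pool 2, 30.3% of members were higher and 69.7% lower, with 30.2% and 60.1% of all genes. Without iron-deficient pool 1, 30.3% of members were higher and 48.5% lower, with 37.8% and 38.4% of all genes. The shares of all genes without a control pool were not computed. Over these runs the median ran from -0.65 to -0.06 for the identity genes and for all members. For the tip genes it ran from -0.60 to 0.06. Of the members whose pools did not overlap, the direction changed for Erg in its other probe set (0.08), the cause of which was not tested. For members with overlapping pools, the sign changed in 4 cases under scaling, filter, moderation or block, in 13 with a pool left out and in 3 other probe sets. The pool numbers are shared between diets, but the labels do not say that they pair the pools, and the deviations of same-numbered pools correlated at 0.357 over 27022 probe sets.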
